A study of Mus musculus with 4 samples.

Results

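The circular RNAs (circRNAs) of 3 enzymes of acyl-CoA metabolism, Acaca, Acsl3 and Pcca, were followed by isoform through 4 mouse brain libraries. A circRNA is a closed loop made when the end of a downstream exon is spliced back to the start of an upstream exon. All entries of the circRNA count table with 1 or both ends on an exon boundary of these genes were taken, which gave 31 of 23980: 10 of Acaca, 3 of Acsl3 and 18 of Pcca. Both ends lay on exon boundaries for 28 of them, and 3 entries of Pcca had an unannotated start. The genes were chosen by their circRNA counts in these same libraries, so their levels are described without a test.

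The libraries were made from perfused brain tissue after removal of ribosomal RNA. In 3 libraries the mice had undergone permanent occlusion of the middle cerebral artery by a filament (MCAO) and were sampled at 3 h, with the RNA of 6 mice pooled for each. They are the penumbra, which is the threatened tissue around the infarct core, and 2 pieces of the core itself, 1 nearer to the frontal lobe (core frontal) and 1 nearer to the occipital lobe (core occipital). The control library came from sham-operated mice, from cortex at the places of core and penumbra. The labels name no strain, age or sex, and neither how many sham mice were used nor when they were sampled. With 1 library per group no value has a replicate error, and no difference can be separated from variation between the mice or pools used. Every interval in square brackets is a 95% interval of counting error only.

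Acaca encodes acetyl-CoA carboxylase 1, a biotin enzyme of the cytosol that makes malonyl-CoA, the building unit of fatty acid synthesis. Acsl3 encodes a long-chain acyl-CoA synthetase of the endoplasmic reticulum and lipid droplets, which couples fatty acids to coenzyme A so that they can be built into lipids. Pcca encodes the biotin-carrying subunit of propionyl-CoA carboxylase, a mitochondrial enzyme that turns propionyl-CoA from branched amino acids and odd-chain fatty acids into methylmalonyl-CoA. Acaca and Pcca both carry a biotin carboxylase part. A circRNA of such a gene is made from the same precursor RNA as the messenger RNA, and its level need not follow that of the messenger, which was not measured in the tables used here.

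The back-splice junctions of the 9 circles with 10 or more counts and both ends on exon boundaries are shown first, because the junction is the only stretch that sets each isoform apart from the linear RNA. Each line holds the last 20 bases of the downstream exon in lower case and then the first 20 bases of the upstream exon in capitals, 5′ to 3′, from GENCODE M21 transcripts on GRCm38. All 3 genes lie on the plus strand.
Acaca exons 2 to 3 (chr11:84193079-84195687): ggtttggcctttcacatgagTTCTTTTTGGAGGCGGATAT
Acaca exons 2 to 5 (chr11:84193079-84215972): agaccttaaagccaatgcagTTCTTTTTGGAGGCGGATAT
Acsl3 exons 4 to 5 (chr1:78688237-78690378): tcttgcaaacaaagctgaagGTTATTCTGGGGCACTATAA
Pcca exons 7 to 9 (chr14:122616754-122650330): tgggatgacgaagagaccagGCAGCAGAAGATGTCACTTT
Pcca exons 7 to 12 (chr14:122616754-122668671): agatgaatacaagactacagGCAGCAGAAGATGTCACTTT
Pcca exons 9 to 12 (chr14:122650252-122668671): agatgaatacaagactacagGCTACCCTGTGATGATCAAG
Pcca exons 15 to 19 (chr14:122690099-122738004): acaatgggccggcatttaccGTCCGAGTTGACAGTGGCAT
Pcca exons 17 to 19 (chr14:122701055-122738004): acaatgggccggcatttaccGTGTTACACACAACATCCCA
Pcca exons 17 to 21 (chr14:122701055-122813247): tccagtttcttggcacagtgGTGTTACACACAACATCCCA
The shared sequences show the shared splice sites. Both Acaca junctions use the start of exon 2, 2 Pcca junctions each use the start of exon 7 and the start of exon 17, and the ends of exons 12 and 19 are used by 2 of the listed Pcca junctions each.

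The 3 genes formed circles in different ways. Acaca and Acsl3 each had a single dominant circle, which held 89.2% of the 472 counts of Acaca and 93.6% of the 173 counts of Acsl3 over the 4 libraries. Pcca had no such circle: its 193 counts were spread over 18 entries, and the most abundant, exons 7 to 9, held 19.2%. Of the 31 entries, 10 had 10 or more counts over the 4 libraries, and 8 were seen in every library. The other 21 had between 2 and 9 counts.

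**Figure D1:**
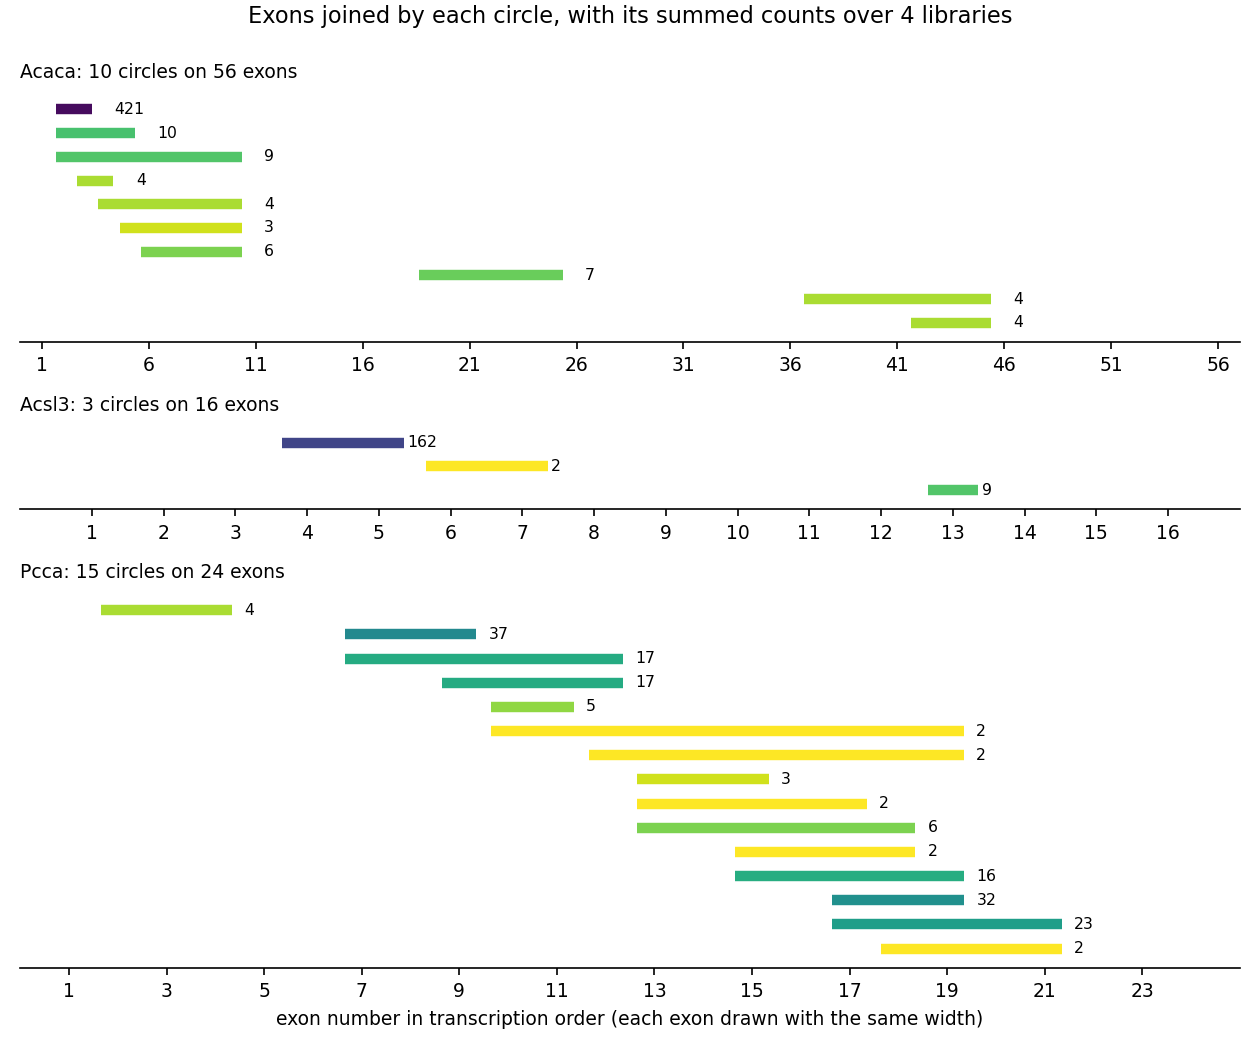
Exons joined by the 28 circles with both ends on exon boundaries, one bar per circle, against the exon number in the model with the most exons; the colour and the number beside each bar give its summed counts over the 4 libraries. Acaca has 1 circle of 421 counts at exons 2 to 3 and Acsl3 has 1 of 162 at exons 4 to 5, while the bars of Pcca overlap between exons 7 and 21, apart from 1 at exons 2 to 4, and none exceeds 37.

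Acaca (chr11:84129672-84401651, 56 exons) gave its dominant circle from exons 2 and 3. The circle is 297 bases long when spliced. Of these, 73 are untranslated and 224 coding, and they hold the start codon of the enzyme, shown here in capitals with its surroundings: tttgaaagaataATGgatgaaccatct. The intron before exon 2 (19523 bases) and the intron after exon 3 (18470 bases) are the longest and the next longest of the 55 introns of the gene, whose median is 2312 bases. Over all 19586 circRNAs with a derived sequence, the median upstream intron was 8362 bases and the median downstream intron 6703. The other 9 Acaca circles lie at the front of the gene, up to exon 10, and at exons 19 to 25, 37 to 45 and 42 to 45. The end of exon 10 was joined to the starts of exons 2, 4, 5 and 6 in 4 circles with 22 counts in all.

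Acsl3 (chr1:78657825-78707743, 16 exons) gave its dominant circle from exons 4 and 5. The whole circle is coding and 288 bases long, and it is shown in full because it carries nearly all counts of the gene, with exon 5 in capitals.
Acsl3 exons 4 to 5: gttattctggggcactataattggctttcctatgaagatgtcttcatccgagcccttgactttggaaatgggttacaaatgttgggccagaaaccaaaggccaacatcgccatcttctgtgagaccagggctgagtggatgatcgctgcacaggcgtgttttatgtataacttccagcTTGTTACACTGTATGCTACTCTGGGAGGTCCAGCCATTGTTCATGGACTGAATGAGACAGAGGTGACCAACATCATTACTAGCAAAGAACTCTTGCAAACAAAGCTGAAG
Its upstream intron of 6226 bases is the next to longest of 15 in the gene, and its downstream intron has 1703 bases. The remaining Acsl3 circles are exon 13 alone (chr1:78701269-78701460) and exons 6 to 7 (chr1:78692082-78694346), with 9 and 2 counts.

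Pcca (chr14:122534324-122891100, 24 exons) gave its most abundant circle from exons 7 to 9, with 37 counts. It had the most counts over the 4 libraries but led in core frontal only. Exons 17 to 21 had more in penumbra (11 against 10), exons 17 to 19 in core occipital (13 against 11) and both in sham (5 each against 4). The circle of exons 7 to 9 is wholly coding and is shown in full, with the 37 bases of exon 8 in capitals.
Pcca exons 7 to 9: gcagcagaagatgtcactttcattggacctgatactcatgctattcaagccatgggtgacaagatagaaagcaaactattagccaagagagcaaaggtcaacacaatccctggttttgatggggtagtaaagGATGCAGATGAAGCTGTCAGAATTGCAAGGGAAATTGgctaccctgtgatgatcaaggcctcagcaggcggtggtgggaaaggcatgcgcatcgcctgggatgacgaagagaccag
Several of the more abundant Pcca circles border on long introns. The circle of exons 17 to 21 ends at the longest intron of the gene (63516 bases), those of exons 15 to 19 and 17 to 19 end at the next longest (52351 bases), and those that start at exon 7 follow the third longest (31643 bases). The circle of exons 9 to 12 lies between introns of 11834 and 16210 bases, nearer to the gene's median of 10142. At their other ends, the circles named before it border on shorter introns. These have 8799 bases before exon 17, 3921 before exon 15 and 8347 after exon 9, all below the median, and 16210 after exon 12. The exon 7 end was also joined to 3 starts that are no exon start of Pcca in the annotation. One of them (chr14:122595056-122616885) had 19 counts, and the other two, at 122595061 and 122611768, had 2 each.

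The dominant circles are short. Spliced lengths of the 28 circles ran from 192 to 1479 bases with a median of 466, against a median of 542 over all circRNAs with a derived sequence, and their GC content from 40.5% to 49.3% with a median of 46.6%, against 47.6%. These lengths assume that every annotated exon between the ends is kept, which counts of junctions do not show. The spliced length was a multiple of 3 for 11 of the 28 (39.3%), against 38.0% over all. In all 11, among them Acaca exons 2 to 3 and Acsl3 exons 4 to 5, the reading frame of the host ran round the circle without a stop codon, and in the other 17 it met a stop after the junction. For a wholly coding circle with a length that is a multiple of 3 the open frame is nearly fixed. Only a codon across its junction could be a stop. Of the 11, Acaca exons 2 to 3 alone holds untranslated bases (73). The frame is a property of the sequence, and translation was not measured.

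Summed over its 10 circles, Acaca was highest in sham. It had 168 counts in sham, 139 in core frontal, 87 in penumbra and 78 in core occipital. In CPM, counts scaled to the same circRNA total in each library, these are 1577, 1145, 903 and 939. The ratio to sham was 0.726 [0.576–0.915] in core frontal, 0.573 [0.437–0.746] in penumbra and 0.595 [0.449–0.783] in core occipital. All 3 MCAO libraries were thus below sham by more than counting error. That error leaves out the further variation between libraries, 11.0% per library for core frontal and sham. The core frontal interval, which ends at 0.915, does not allow for it. Between MCAO libraries the ratios were 0.789 [0.596–1.04] for penumbra to core frontal and 0.962 [0.700–1.32] for penumbra to core occipital. For core frontal to core occipital it was 1.22 [0.918–1.63], and all of these intervals included 1. Core frontal lay between sham and the other MCAO libraries, and its intervals do not place it nearer to either.

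The dominant Acaca circle, exons 2 to 3, was likewise highest in sham and next in core frontal, and nearly equal in the other two libraries. It had 148 counts in sham, 128 in core frontal, 78 in penumbra and 67 in core occipital, or 1389 [1174–1632], 1054 [880–1254], 810 [640–1010] and 806 [625–1024] CPM. It ranked 65th by count among the circRNAs of sham and 125th among those of core occipital. Its ratio to sham was 0.759 [0.595–0.968] in core frontal, 0.583 [0.437–0.772] in penumbra and 0.581 [0.428–0.780] in core occipital. The choice among the circles that start at exon 2 stayed nearly the same: exons 2 to 3 made up 96.1% [91.7–98.6] of their counts in sham, 96.2% [91.4–98.8] in core frontal, 94.0% [86.5–98.0] in penumbra and 95.7% [88.0–99.1] in core occipital. The circle of exons 2 to 5 had 2 counts in sham, 4 each in core frontal and penumbra and 0 in core occipital, and the remaining 8 Acaca circles had 3 to 9 counts in all.

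Acsl3 was likewise highest in sham, and lowest in core occipital. Its summed counts were 64 in sham, 55 in core frontal, 35 in penumbra and 19 in core occipital, or 601, 453, 363 and 229 CPM. The ratio to sham was 0.381 [0.215–0.644] in core occipital, 0.605 [0.389–0.927] in penumbra and 0.754 [0.516–1.10] in core frontal, where the interval included 1. Core frontal was higher than core occipital by 1.98 [1.16–3.54]. The dominant circle of exons 4 to 5 had 57, 52, 34 and 19 counts in the same order, or 535 [405–693], 428 [320–562], 353 [244–493] and 229 [138–357] CPM. Against sham its ratio was 0.801 [0.539–1.19] in core frontal, 0.660 [0.418–1.03] in penumbra and 0.427 [0.240–0.729] in core occipital. The circle of exon 13 had 6 counts in sham, 2 in core frontal, 1 in penumbra and 0 in core occipital, too few to compare.

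Pcca ran the other way and was lowest in sham. Its summed counts were 30 in sham, 45 in core frontal, 62 in penumbra and 56 in core occipital, or 282, 371, 643 and 674 CPM. The ratio to sham was 2.39 [1.51–3.86] in core occipital and 2.29 [1.46–3.66] in penumbra. In core frontal it was 1.32 [0.811–2.16], with an interval that included 1. Penumbra was higher than core frontal by 1.74 [1.16–2.61], and core frontal stood at 0.550 [0.363–0.829] of core occipital. Penumbra and core occipital did not differ beyond counting error (0.955 [0.654–1.40]). The number of Pcca entries seen was 11 each in sham and core frontal, 12 in penumbra and 14 in core occipital.

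**Figure D2:**
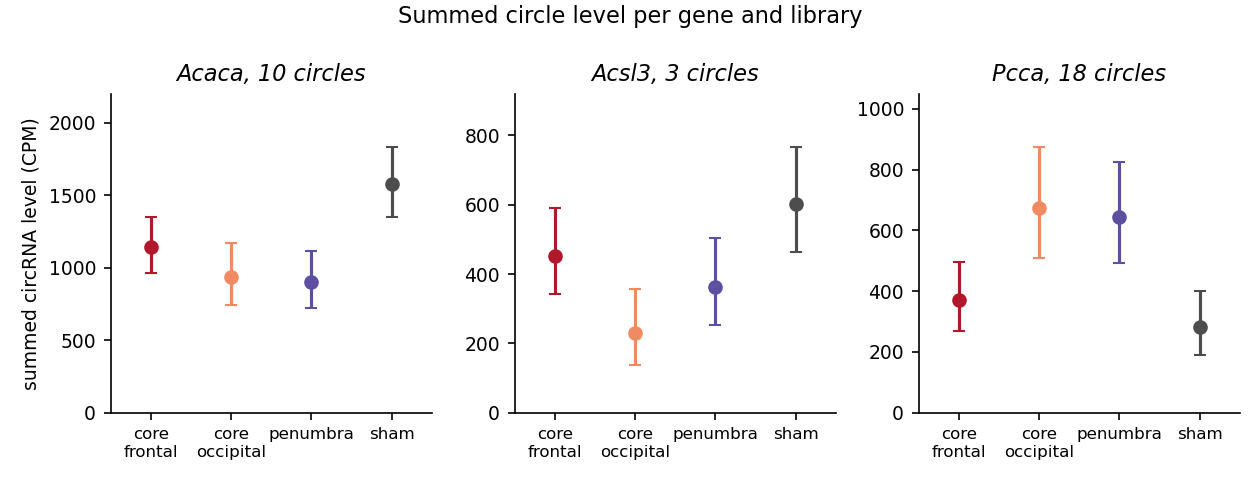
Summed circRNA level of each gene (CPM, axis from 0, a scale for each gene) in the 4 libraries; points are single libraries and bars the 95% Poisson intervals of counting error. Sham is the highest point for Acaca (1577 CPM) and Acsl3 (601 CPM) and the lowest for Pcca (282 CPM).

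The contrast of Pcca with the other genes can also be written as counts per count within each library, which needs no scaling between libraries. For each Acaca count there were 0.179 Pcca counts in sham, 0.324 in core frontal, 0.713 in penumbra and 0.718 in core occipital. Relative to sham this is 1.81 [1.05–3.15] times as many in core frontal, 3.99 [2.34–6.87] in penumbra and 4.02 [2.32–7.01] in core occipital. For each Acsl3 count there were 0.469 Pcca counts in sham, 0.818 in core frontal, 1.77 in penumbra and 2.95 in core occipital. Relative to sham this is 1.75 [0.933–3.28], 3.78 [1.99–7.20] and 6.29 [3.04–13.1] times as many. Acsl3 and Acaca kept closer to each other, with 0.381 Acsl3 counts per Acaca count in sham, 0.396 in core frontal, 0.402 in penumbra and 0.244 in core occipital. All these comparisons have the sham library in common, so a deviation of that library would move them together. They reuse the counts by which the genes were chosen, so they restate the contrast and lend it no support.

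The Pcca isoforms did not share a single pattern. The circle of exons 7 to 9 had its lowest value in sham, with 4 counts in sham, 12 in core frontal, 10 in penumbra and 11 in core occipital, or 37.5, 98.9, 104 and 132 CPM. Its ratio to sham was 3.53 [1.05–15.2] in core occipital, while the intervals of core frontal (2.63 [0.798–11.2]) and penumbra (2.76 [0.797–12.1]) included 1. The circle of exons 17 to 19 had its higher values in both cores and its lower ones in penumbra and sham, with 5, 11, 3 and 13 counts in the same order, or 46.9, 90.6, 31.1 and 156 CPM. Its ratio was 3.33 [1.12–11.9] for core occipital to sham and 0.199 [0.0364–0.724] for penumbra to core occipital. Core frontal did not stand apart beyond counting error, with 1.93 [0.619–7.09] for core frontal to sham and 0.344 [0.0616–1.30] for penumbra to core frontal. Each of these 2 circles lies in a different part of the gene.

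A further 4 Pcca circles were highest in penumbra. Exons 17 to 21 had 5 counts in sham, 2 in core frontal, 11 in penumbra and 5 in core occipital, with a ratio of 6.93 [1.51–64.3] for penumbra to core frontal. In the same order, exons 15 to 19 had 4, 0, 9 and 3 counts, and for the 0 of core frontal the floor of 3 counts stands at 24.7 CPM and the Poisson interval ends at 30.4. Exons 7 to 12 had 3, 5, 9 and 0 counts, where for the 0 of core occipital the floor stands at 36.1 CPM and the interval ends at 44.4. Exons 9 to 12 had 3, 2, 8 and 4 counts. The Poisson intervals of penumbra and sham overlapped for all 4, as in the circle of exons 7 to 12 with 93.4 [42.7–177] CPM in penumbra and 28.2 [5.81–82.3] in sham. The junction of exon 7 with the unannotated start was highest in core occipital, with 2 counts each in sham and core frontal, 6 in penumbra and 9 in core occipital, a ratio of 5.77 [1.19–54.9] to sham.

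**Figure D3:**
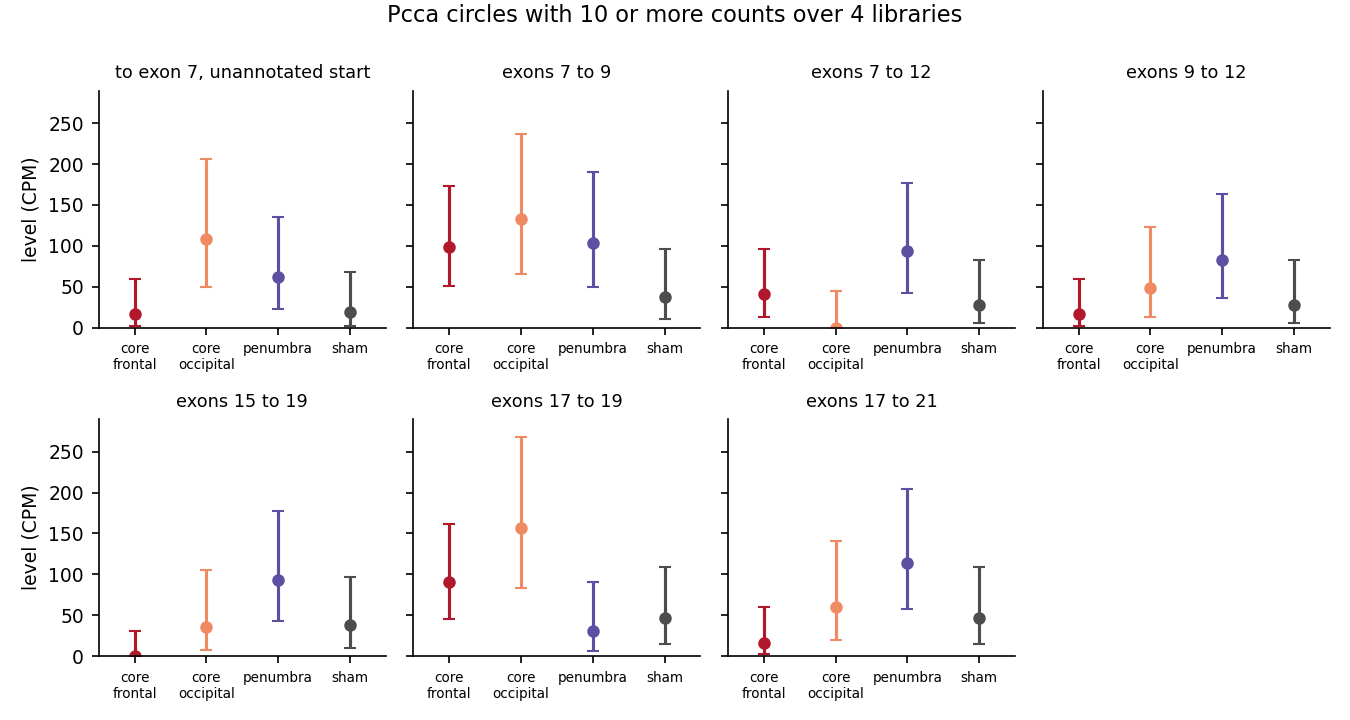
Level (CPM, same axis from 0 in each panel) of the 7 Pcca entries with 10 or more counts in the 4 libraries; points are single libraries and bars the 95% Poisson intervals of counting error. Exons 17 to 19 has its higher points in both cores (90.6 and 156 CPM) and its lowest in penumbra (31.1), while exons 17 to 21, 15 to 19, 7 to 12 and 9 to 12 have their highest point in penumbra.

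At 2 of the splice sites that these isoforms share, the start of exon 17 and the end of exon 19, the partner shares of core frontal and penumbra had intervals that did not overlap. Both sites belong to the circle of exons 17 to 19, so they are not independent. From the start of exon 17, the counts joined to the end of exon 19 rather than exon 21 made up 84.6% [54.6–98.1] of 13 in core frontal, 21.4% [4.66–50.8] of 14 in penumbra and 72.2% [46.5–90.3] of 18 in core occipital, and were 5 of 10 in sham. The interval of penumbra did not overlap that of core frontal and overlapped the others. The summed level of both circles, 93.8 CPM in sham, 107 in core frontal, 145 in penumbra and 217 in core occipital, had another order than either alone. At the end of exon 19, the counts that came from exon 17 rather than exon 15 were 5 of 9 in sham, 11 of 11 in core frontal, 3 of 12 in penumbra and 13 of 16 in core occipital, with intervals of 71.5% to 100% in core frontal and 5.49% to 57.2% in penumbra. At the start of exon 7, those joined to exon 9 rather than exon 12 were 4 of 7, 12 of 17, 10 of 19 and 11 of 11 in the same order. At the end of exon 12, those that came from exon 7 rather than exon 9 were 3 of 6, 5 of 7, 9 of 17 and 0 of 4. The intervals of all libraries overlapped at both of these sites. The sites were looked at after the counts had been seen, and with 4 to 19 counts per library no share is known to better than about the width of its interval.

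Few of these circles are abundant enough to be judged singly. Beside all circRNAs with 10 or more counts over a pair of libraries, the entries of the 3 genes that reached this number were counted as past 2-fold where the CPM ratio was at least 2 in either direction. In core frontal to sham, 1 of 4 was higher (Pcca exons 7 to 9) and 0 lower, where 15.1% of all circRNAs were 2-fold higher and 11.4% lower (26.5% in either direction). In core occipital to sham, 3 of 6 were higher, all of Pcca, and 1 lower, Acsl3 exons 4 to 5 (background 11.3% and 13.1%, 24.4% together). In penumbra to sham, 5 of 7 were higher, all of Pcca, and 0 lower (11.1% and 12.7%, 23.8% together). In penumbra to core frontal, 3 of 7 were higher, Pcca exons 7 to 12, 9 to 12 and 17 to 21, and Pcca exons 17 to 19 was lower (11.5% and 12.9%, 24.4% together). In penumbra to core occipital, 1 of 8 was higher, Pcca exons 15 to 19, and 1 lower, Pcca exons 17 to 19 (11.5% and 8.91%, 20.4% together). In core frontal to core occipital, 0 of 5 were higher and 1 lower, the Pcca junction with the unannotated start (14.8% and 10.8%, 25.6% together). A rare circle reached 10 counts only where it was high in a library, so these counts lend no support to a difference.

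A stricter rule joined the 2-fold ratio with Fisher's exact test, Benjamini-Hochberg adjusted over all circRNAs of the pair, and compares libraries, not conditions. Of the 31 entries 9 had enough counts in any pair, between 4 and 8 in each, and the rule called 0 of these in the 6 pairs. Acaca exons 2 to 3 alone had an adjusted p under 0.05, in core occipital to sham, at less than a 2-fold ratio, and since it was selected on these counts this is no support for a difference. Of all circRNAs it called 0.289% higher and 0.458% lower in core frontal to sham, 0.292% and 0.175% in core occipital to sham, and 0.0538% and 0.0% in penumbra to sham. It called 0.53% and 0.404% in penumbra to core frontal, 0.0303% and 0.0303% in penumbra to core occipital, and 0.185% and 0.159% in core frontal to core occipital.

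**Figure D4:**
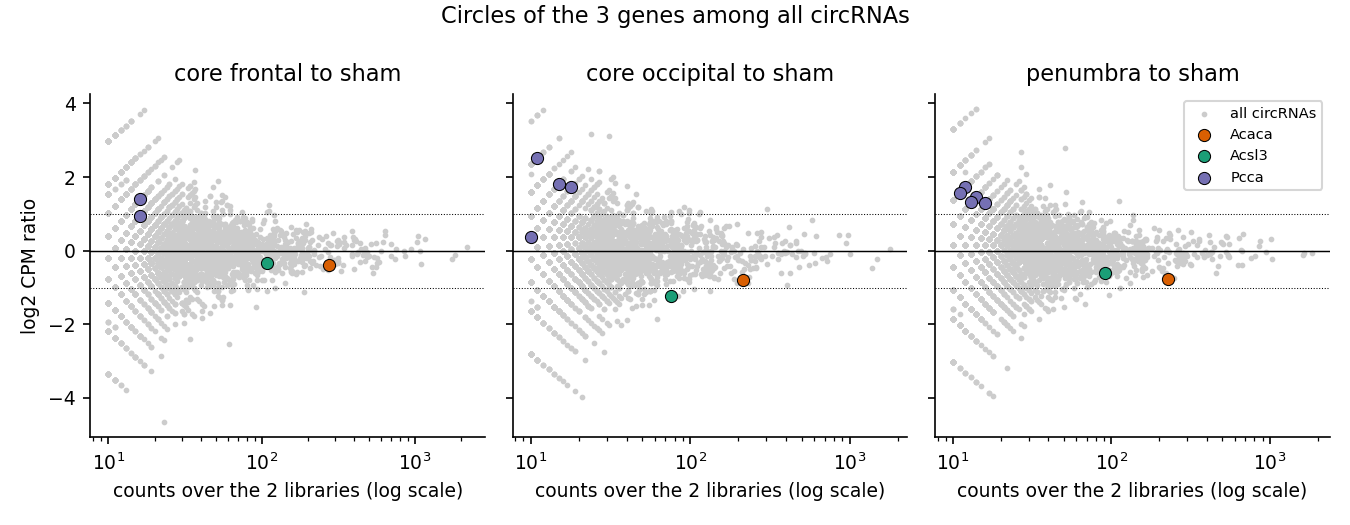
The log2 CPM ratio of each MCAO library to sham against the summed counts of the pair (log scale) for all circRNAs with 10 or more counts (grey) and those of Acaca, Acsl3 and Pcca (coloured); dotted lines mark 2-fold and a count of 0 was set to 3. The dominant circles of Acaca and Acsl3 lie below 0 in each panel, and the Pcca points drawn, all under 20 counts, lie above 0. Pcca circles with fewer than 10 counts in a pair are not drawn, and these lie on both sides of 0. In penumbra to sham, exons 17 to 19 had a ratio of 0.664 and the junction with the unannotated start 3.32. A rare circle reaches the minimum mostly where it is high, so the side of the drawn points is no support for a difference.

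Variation between libraries is larger than counting error alone. Over circRNAs with 100 or more counts in a pair, the variation beyond counting error was 11.0% per library for core frontal and sham, 14.8% for core occipital and sham and 9.55% for penumbra and sham. The total circRNA count was between 83090 and 121393 per library. Among the marker hosts, all 8 neuronal genes gave circles, with a sum between 22102 CPM in core frontal and 24215 in core occipital. Rims1 and Rims2 gave 4454 and 2705 of the 9376 neuronal counts, so the sum says little about the others. Gria2 had 347 CPM in sham, 371 in core frontal, 218 in penumbra and 217 in core occipital. Rbfox3 had 319, 321, 343 and 530 CPM in the same order. None of the 4 oligodendrocyte, 3 microglial and 4 liver markers gave any, 1 of the 4 astrocyte markers did (65.7 CPM in sham to 135 in penumbra) and 1 of the 3 endothelial markers (at most 1 count in a library). Whether the makeup of the tissue had a part in the differences was not tested, and in tissue samples fewer cells of a type and less RNA per cell cannot be told apart.

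Around these enzymes, 4 lists of 99 symbols in all (1 gene stands under both its names) held 36 genes with circRNAs, 78 circles and 974 counts. Of the acyl-CoA synthetases besides Acsl3, 3 of 18 symbols had a circle each, with 17 counts together. Of the fatty acid oxidation genes, 13 of 34 had circles, with 104 counts together, and of synthesis and elongation 10 of 26, with 134. The propionyl-CoA and biotin list had 10 of 21 with 719 counts, among which Pccb, the partner subunit of Pcca, had 8 counts in 2 circles.

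Only 4 hosts on the lists had 50 or more counts. Bckdhb, a subunit of the branched-chain ketoacid dehydrogenase that lies upstream of propionyl-CoA, had 87 counts in sham, 86 in core frontal, 43 in penumbra and 37 in core occipital. Its ratio to sham was 0.868 [0.637–1.18] in core frontal, 0.547 [0.370–0.796] in penumbra and 0.545 [0.361–0.810] in core occipital. Penumbra and core occipital were thus below sham by more than counting error. Its circle of exons 4 to 8 (chr9:83988776-84012619) had 69, 67, 27 and 30 counts in the same order and was past 2-fold in penumbra to sham (0.433 [0.267–0.684]). Lmbrd1, needed for the lysosomal export of the vitamin B12 that methylmalonyl-CoA mutase uses, had 97, 88, 70 and 63 counts. Its ratios to sham lay between 0.796 and 0.833, with intervals that included 1. Hlcs, which attaches biotin to Acaca and Pcca, had 13, 10, 19 and 12 counts. Hacd1, of fatty acid elongation, had 12, 28, 9 and 16 counts, a ratio of 2.05 [1.01–4.42] for core frontal to sham and 0.405 [0.168–0.883] for penumbra to core frontal.

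Of the circles on these lists that reached 10 counts in a pair, 2 of 11 were 2-fold higher and 3 lower in core frontal to sham, 1 of 9 higher and 1 lower in core occipital to sham, and 0 of 10 higher and 2 lower in penumbra to sham. Over all circRNAs the shares were 15.1% and 11.4%, 11.3% and 13.1%, and 11.1% and 12.7%. With so few circles, the shares past 2-fold cannot tell the lists from the whole table. Besides Bckdhb the circles past 2-fold to sham were 2 of Hacd1, exons 2 to 6 (6, 18, 6 and 11 counts in sham, core frontal, penumbra and core occipital) and a junction with 1 end on an exon boundary (2, 10, 2 and 3). The others were Mecr exons 2 to 3 (9, 5, 4 and 4), Hadhb exons 4 to 6 (9, 3, 5 and 4) and Lmbrd1 exons 8 to 9 (11, 3, 6 and 3). Between the MCAO libraries, 1 of 8 was 2-fold higher and 2 lower in penumbra to core frontal, 1 of 7 higher and 1 lower in penumbra to core occipital, and 1 of 7 higher and 0 lower in core frontal to core occipital. Hlcs exons 3 to 5 (10, 7, 14 and 5) had ratios of 2.52 [0.952–7.38] for penumbra to core frontal and 2.41 [0.822–8.57] for penumbra to core occipital. For Hacd1 exons 2 to 6 they were 0.420 [0.136–1.10] and 0.470 [0.143–1.39]. The other Hacd1 junction had 0.252 [0.0268–1.18] for penumbra to core frontal and 2.28 [0.587–12.9] for core frontal to core occipital. All these intervals between MCAO libraries included 1. In core frontal to sham, Lmbrd1 exons 8 to 9 had 0.239 [0.0429–0.906] and Hacd1 exons 2 to 6 had 2.63 [1.001–8.10], with intervals that excluded 1. The other ratios to sham past 2-fold, besides that of Bckdhb, had intervals that included 1. These circles were picked as past 2-fold, so the intervals are a description only. Fisher's rule called 0 of them.

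Among the other host genes with 200 or more circRNA counts, those nearest in pattern were found by the distance between log2 CPM centred on the mean of the 4 libraries. Nearest to Acaca among 425 hosts were Lmbr1 at a distance of 0.091, Epha5 at 0.183 and Dnajc1 at 0.231, where the median distance was 0.680. Lmbr1 had 80 counts in sham, 61 in core frontal, 41 in penumbra and 36 in core occipital. Nearest to Acsl3 among 426 hosts were Fam228b at 0.233, Tmem56 at 0.323 and Cntn5 at 0.408 (median 1.03), with 98, 97, 64 and 36 counts for Fam228b. Nearest to Pcca were App at 0.499, Dnmt3a at 0.504 and Sel1l3 at 0.527 (median 1.13), with 62, 67, 87 and 74 counts for App. A likeness over 4 libraries, with depth and totals in common, is a description only.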

How the data were processed

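RNA sequencing of 4 mouse brain libraries was analysed from the deposited circRNA count table. The authors deposited whole-number counts per circRNA without normalization. TopHat2 2.0.10, Bowtie and the build mm9 are listed per the submitters' processing notes, while for the circRNA caller and its way of counting the sources used here give nothing. The coordinates lay on GRCm38: 89.1% of starts met exon starts of GENCODE M21, against 0.192% when moved by 1 base. The members and lists were chosen with earlier results of these data known. Libraries were mapped by the column names in the labels. Host genes, exon numbers (model with the most exons) and spliced sequences came from GENCODE M21, and the table gives no strand. Counts were divided by the library's total circRNA count (CPM), ratios carry exact conditional (Clopper-Pearson) intervals, levels Poisson intervals and shares exact binomial intervals, all at 95%. No molecular identifiers are named, so amplified copies may be counted and intervals cover counting error only. A count of 0 was set to 3 for ratios, and none was formed where the other count was 3 or fewer. Named circles had 10 or more counts over the 4 libraries, named list hosts 50 or more, besides list circles past 2-fold. Fisher's exact test (two-sided, scipy 1.17.1) and the intervals were tested on simulated data with counting error only. That check does not cover the variation between libraries seen in these data. Alternatives were TMM (edgeR 4.0.16) and DESeq2 1.42.0 scaling, other minimums and removal of the GC trend (lowess). The deposited FPKM table was not used.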

Additional observations from a re-analysis of the deposited data

How the results depend on the processing

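With 1 library per group every comparison rests on single libraries, and the depth of 83090 to 121393 counts leaves most isoforms under 10 counts. No paired analysis was possible because each group has 1 library and the labels give no replicate numbers. Of 106 recomputed gene ratios 101 stayed within the counting interval, as did all 111 of single circles and all 36 isoform shares. For single circles the shifts given below are small beside the intervals, so this outcome was nearly fixed beforehand and shows no robustness. The same holds for the gene ratios under TMM or DESeq2 scaling or without the GC trend. A scaling factor cancels in a share within a library, so scaling could not move an isoform share. The 5 gene ratios that left the interval were all among those without the dominant circle. Keeping only circles with both ends on exon boundaries could not change Acaca or Acsl3, whose circles all have both. TMM factors shifted log2 ratios of core occipital to sham by -0.11 and of penumbra to core occipital by 0.12. Single-circle ratios moved to between 0.925 and 1.09 of their value under TMM factors and between 0.928 and 1.05 with the GC trend removed.

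Without the dominant circle, the rest of Acaca had a ratio of 0.483 [0.209–1.06] in core frontal to sham and 0.684 in core frontal to core occipital, against 1.22 with it. The rest of Acsl3, 11 counts, had 0.376 in core frontal to sham, 0.158 in penumbra to sham and 0.420 in penumbra to core frontal. Against core occipital, with 0 such counts, it had at most 3 counts in penumbra and core frontal and no ratio was formed. The number of circles past 2-fold depended on the count minimum by construction. Without a minimum the numbers higher and lower were 2 and 4 in core frontal to sham, 5 and 2 in core occipital to sham, 7 and 5 in penumbra to sham, 5 and 2 in penumbra to core frontal, 2 and 3 in penumbra to core occipital and 1 and 7 in core frontal to core occipital. At 30 counts it was 0 wherever it had been above 0, apart from the 1 lower circle in core occipital to sham. TMM factors gave 2 higher in penumbra to core occipital, and with both ends on exon boundaries 0 were lower in core frontal to core occipital.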
